A study of Mus musculus with 2 samples.

Results

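The regions described here are 1548 strong and broad H3K27ac peaks of the embryonic heart chambers. Each met a peak selected by the same rule in the atrioventricular canal (AVC), the segment between atria and ventricles. H3K27ac was profiled by ChIP-seq in 2 libraries from FVB/N mouse embryos at E10.5 (age in embryonic days), both labelled with the genotype Katushka+ EGFP+. The chambers library came from sorted cells positive for Katushka, a red fluorescent protein, and the AVC library from sorted cells positive for EGFP, a green one. The labels do not say what drives either reporter or how many embryos were pooled, and the track names in the files carry a "3x" whose meaning is not stated. Each tissue had 1 library, so no difference below has a replicate check and none was tested.

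The members were selected by measured values: signal, width and overlap. Mitochondrial, X and Y peaks were left out, which left 66142 chambers and 86942 AVC peaks on the 19 autosomes. In each list, peaks were kept when their signal value, a whole number that the file headers do not name, reached that of the 10000th peak and when they were at least 500 bp wide. The signal cut was 47 in both lists. This kept 5226 chambers and 6399 AVC peaks. The limits were not equally strict: 15.2% of chambers and 11.6% of AVC peaks reached the signal cut, and 13.4% and 41.9% the width limit. A member is a kept chambers peak that overlaps a kept AVC peak by at least 1 bp. Members made up 29.6% of the kept chambers peaks (exact Clopper-Pearson 95% interval 28.4 to 30.9) and 2.34% of all autosomal chambers peaks. The 1518 AVC peaks that they met were 23.7% of the kept AVC peaks. Intervals cover counting error only, and since neighbouring peaks are not independent they are too narrow.

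Acetylation of lysine 27 of histone H3 is laid down by the acetyltransferases p300 and CBP and marks nucleosomes at active promoters and enhancers. A narrow region of the mark usually flanks a single regulatory element. Broad or closely packed regions are found at strongly transcribed genes and at enhancer groups near genes that define a cell's identity. In the embryonic heart both the AVC and the chambers contain myocardium, and the AVC myocardium keeps a slowly conducting state while the chambers build a working, fast conducting muscle. Gene starts and base sequences at the members are not analysed here, because the reference tables at hand use another genome build than the mm9 positions of the peaks. For the same reason the tissue labels were not checked against marker genes, and regions are named by position alone.

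The remaining kept chambers peaks fell into a pair of classes. There were 2064 (39.5%) that overlapped AVC peaks, but none that had been kept, and 1614 (30.9%) that overlapped no AVC peak. Any AVC peak at all lay under 3612 kept chambers peaks, or 69.1%, against 31.7% of all autosomal chambers peaks. The AVC partner of the 2064 was most often both too weak and too narrow (1181 peaks). It was broad but too weak at 712, strong but too narrow at 162, and at 9 one partner failed on each ground. Weak signal was therefore the more frequent reason for leaving out a partner than narrow width.

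The boundaries of the rule were crossed by small steps. The weakest members included chr1:51927887-51928816 with a chambers signal of 47 and an AVC signal of 58, and chr1:166405253-166405762 with 47 and 69. Just under the signal cut were chr1:94042159-94042926, with a signal of 46 at an AVC peak of 52, and chr1:153496624-153497264, with 46 and 62. There were 6 members of exactly 500 bp, among them chr10:36859214-36859713 and chr11:3049962-3050461. Just under the width limit lay chr10:57804164-57804662 and chr10:118183190-118183688, both 499 bp. In all, 264 broad chambers peaks met a kept AVC peak and missed the signal cut alone, and 479 strong ones missed the width limit alone. Overlap itself was loose at the low end: 37 members shared under 100 bp with the AVC peak, and 189 (12.2%) had less than 50% of their own width covered.

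Membership rose with the strength and the width of the chambers peak, which are values the rule used and are given as a description. Of the kept chambers peaks with a signal from 47 to under 60, 15.9% were members (304 of 1917). From 100 to under 150 the share was 55.3% (323 of 584), and at 200 or more it was 90.9% (70 of 77, interval 82.2 to 96.3). By width, 21.4% of the peaks from 500 to under 600 bp were members, against 85.7% (42 of 49) of those at 1500 bp or more. Among the 100 kept chambers peaks of highest signal 92 were members, whereas among the 100 kept AVC peaks of highest signal 57 met a member. Chambers peaks of the first 100 met AVC peaks of the first 100 in 37 cases. Most of these lay in the chromosome 11 cluster described below, where collection of reads whatever the mark was not tested. The strongest chambers peaks thus nearly always had a kept AVC partner, and the partner was often of moderate rank.

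**Figure D1:**
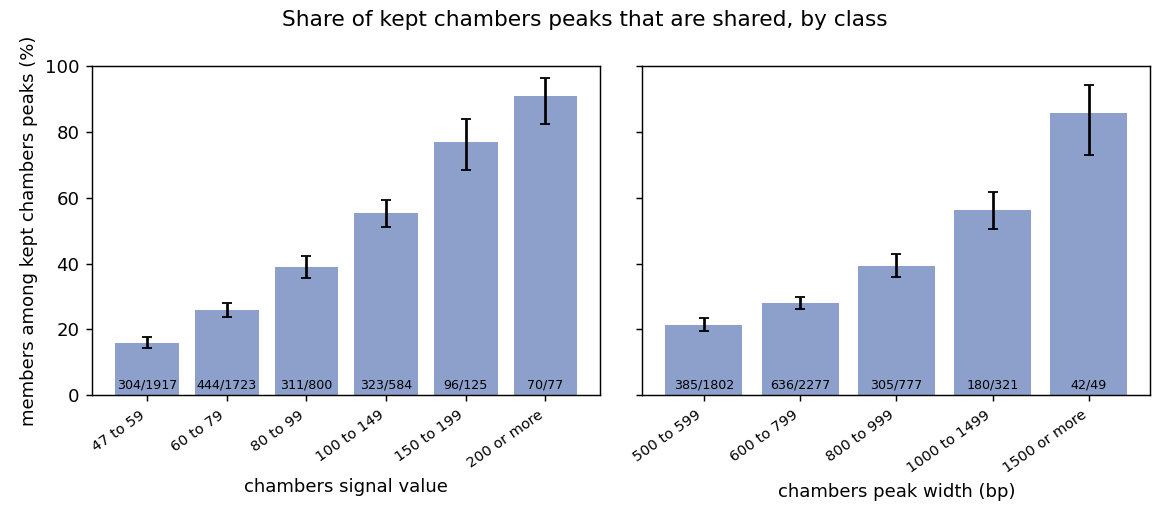
Percentage of kept chambers peaks that are members, by chambers signal value (left) and by chambers peak width in bp (right), with exact 95% intervals as error bars and the counts at the foot of each bar. The share climbs from 15.9% in the lowest to 90.9% in the highest signal class, and from 21.4% to 85.7% across the width classes.

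The members were mostly modest in size and signal, with a few extreme values. Their chambers signal had a median of 81 (interquartile range 64 to 111) and ran from 47 to 257052. The AVC signal at the same places had a median of 66 (55 to 85) and ran from 47 to 572185. All autosomal peaks together had a median of 29 in the chambers and 31 in the AVC. Members had a median width of 705 bp in the chambers list (600 to 863) and 744 bp in the AVC list (627 to 916). All autosomal peaks had median widths of 326 bp in the chambers and 472 bp in the AVC. For comparison, the 3678 kept chambers peaks that are no members had a median signal of 62 and a median width of 635 bp. At least 1000 bp were covered by 222 members in the chambers and by 81 members in both lists. Only 7 members had a chambers signal of 1000 or more, while 1059 (68.4%) stayed under 100.

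Borders of paired peaks differed, within the closeness that the overlap rule itself requires. Most members (1350, 87.2%) met exactly 1 kept AVC peak that met no other member. Otherwise, 52 members met 2 kept AVC peaks and 1 met 3, and 76 AVC peaks met 2 members and 4 met 3. In the one-to-one group the AVC start minus the chambers start lay between -431 and 392 bp from the 5% to the 95% point. The overlap took up a median of 70.5% of the joint span (53.6 to 83.9). The centres of the paired peaks lay a median of 104 bp apart, within 100 bp in 659 pairs and within 250 bp in 1082. The AVC centre minus the chambers centre had a median of 0 bp (-108 to 100). The AVC peak contained the member in 281 pairs, lay inside it in 272, and was staggered against it in 797. It was the wider of the pair in 711 cases and the narrower in 636.

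Signal and width of a member were more weakly related between the lists than to each other within a list. Over the 1548 members Spearman's rho was 0.38 between the signal values and 0.21 between the widths. Past the first 4 Mb these were 0.34 and 0.20. Within a list, signal and width went together, with a rho of 0.65 in both lists. The unnamed signal value may grow with peak length, as in the mitochondrial peaks described below. The relation within a list can therefore be partly built in. Per kb of each peak's own width, the signals of the lists had a rho of 0.47. These are correlations across regions of 1 library each and come with no test. They were taken over a range of signal and width that the rule had cut from below.

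The ratio of AVC to chambers signal varied widely among the members. In sorted populations, fewer cells carrying the mark and less of it per cell cannot be told apart. The lists are not scaled to each other, so the level of the ratio carries no direction, and only its spread and order can be read. Where an AVC value is called higher or lower below, the deposited numbers are compared as they stand, and the median ratio of all overlapping peaks serves as the reference. Its median was 0.842 (interval 0.820 to 0.857), with 5% of members under 0.439 and 5% over 1.79. Over all 20941 autosomal chambers peaks that overlap an AVC peak the median was 1.12 (1.12 to 1.13), and 338 members (21.8%) lay above it. The AVC value was at least 2 times the chambers value at 54 members (3.49%), against 8.33% of all overlapping peaks. It was at most 0.5 times the chambers value at 146 members (9.43%), against 5.84%. Both thresholds use values on which the members were chosen, so these counts are descriptions. Taken per kb of peak width the median ratio was 0.795, and the middle range narrowed to between 0.672 and 0.948.

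**Figure D2:**
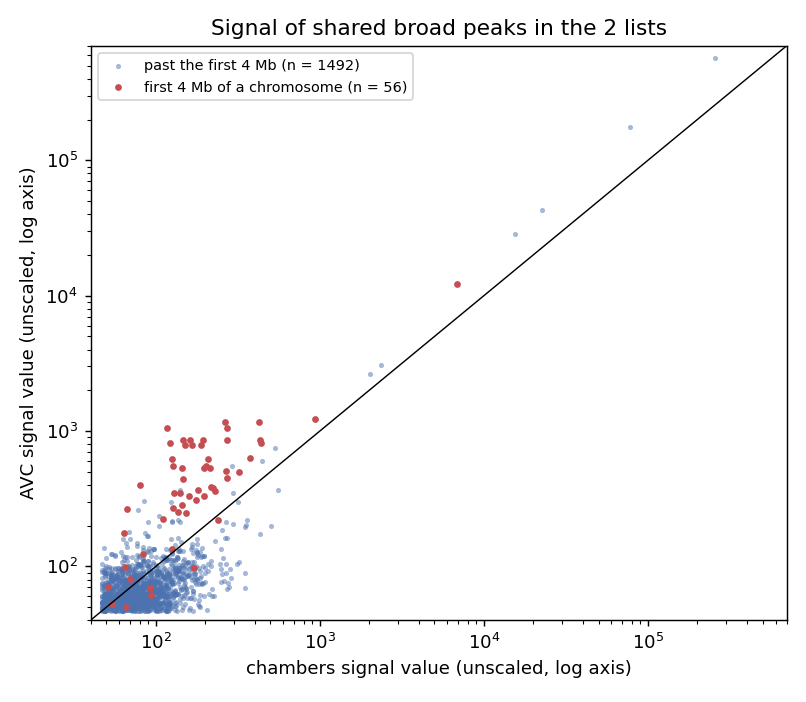
Each point is 1 member, placed by its unscaled chambers signal (horizontal, log axis) and the signal of its strongest kept AVC partner (vertical, log axis), with the line of equal values. Most points form a cloud under 200 on both axes, a sparse line of points runs up to 257052 and 572185, and the members in the first 4 Mb of a chromosome (red) mostly lie above the line.

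Stronger chambers peaks had lower ratios, up to a point. The median ratio was 1.10 for members with a chambers signal from 47 to under 60, 0.725 from 80 to under 100, and 0.544 from 150 to under 200. The AVC cut of 47 sets a floor to the ratio in each class, and the classes are defined by the denominator of the ratio, so this order is partly built in. At 200 or more the 70 members no longer formed 1 group: the middle range of the ratio ran from 0.358 to 1.68 around a median of 0.637. Width behaved alike, with a median AVC-to-chambers width ratio of 1.28 for members of 500 to under 600 bp and 0.593 at 1500 bp or more. Here too the classes are defined by the denominator and the AVC width has a floor of 500 bp, so this order is partly built in.

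**Figure D3:**
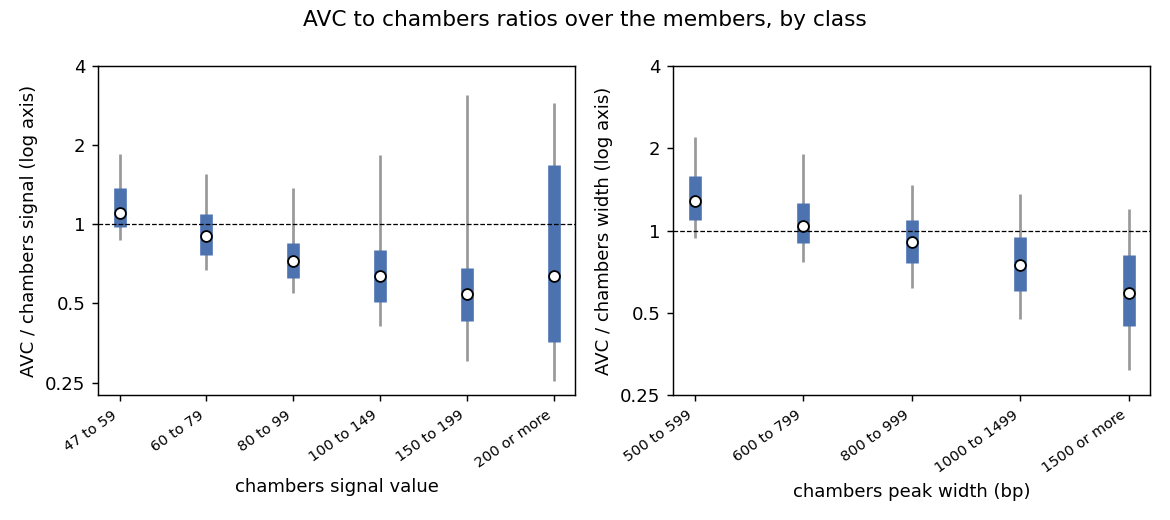
AVC-to-chambers ratio of signal by chambers signal class (left) and of width by chambers width class (right), both on log axes. Circles are medians, thick bars the middle 50% and thin lines the range from 5% to 95% of the members. The signal ratio falls from 1.10 to 0.544 over the first 5 classes and then spreads from 0.358 to 1.68 in the class of 200 or more.

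The members of highest chambers signal held a single locus on chromosome 11 and, elsewhere, their ratios differed by density of chambers signal. Of the 70 with a chambers signal of 200 or more, 19 started in the first 4 Mb of a chromosome, and 18 of these belonged to the cluster of chromosome 11 described below. Among the 19, 18 had a ratio above the reference of 1.12 (median 1.85). The 51 farther along had a median ratio of 0.451, and 10 lay above the reference. All 10 belonged to the 12 with a signal of at least 250 per kb, whose median ratio was 1.38. The other 39, under 250 per kb, had a median width of 1717 bp, a median ratio of 0.392 (range 0.196 to 0.934), and none lay above the reference. The limit of 250 per kb was set after the values were seen. Choosing by chambers signal also selects on the denominator of the ratio. Selecting on the AVC side gave another picture. Among 28 members past the first 4 Mb with an AVC signal of 200 or more, the median ratio was 1.67 and 21 lay above the reference. The 17 of them under 250 per kb in the chambers had a median ratio of 1.71, with the AVC value higher at 11. Density thus did not separate the ratios there as it did among members chosen by chambers signal. For comparison, 568 narrow peaks under 300 bp with a chambers signal of 200 or more had a median ratio of 1.72 (middle range 1.62 to 1.83). Of these, 567 lay above the reference. What sets the ratio in each group was not tested.

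The 5 members of highest chambers signal were also the 5 that ranked best in both lists. On chromosome 2 they were chr2:98506376-98507514, with a signal of 257052 in the chambers and 572185 in the AVC, and chr2:98502371-98503171, with 77337 and 175765. Chromosome 17 held chr17:39984384-39985722 with 22553 and 42899, and chr17:39983217-39984365 with 15387 and 28493. The last was chr6:3150766-3151703 with 6895 and 12109. All ratios, between 1.76 and 2.27, lay above the reference of 1.12. Their signals lay far above the median of 81, and they were between 801 and 1339 bp wide. Whether such positions collect reads whatever the mark was not tested, since no control library, repeat annotation or list of such regions was used here. The same holds for the members at chr1:24618378-24622067 and in the large cluster of chromosome 11, so none of these values can be taken as acetylation alone.

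Other members stood high in both lists while being broad. Leaving out the first 4 Mb and signals of 1000 or more, a choice made after seeing the values, the widest among the 8 best joint ranks were led by chr19:5800049-5802024, 1976 bp wide, with 556 in the chambers and 368 in the AVC. On chromosome 11 the member chr11:18915167-18917083 had 318 and 297. Another, chr19:36762596-36764519, had 358 and 219, and chr3:79793359-79795201 had 269 and 214. These were between 1843 and 1976 bp wide in the chambers and between 1572 and 2713 bp in the AVC. Of all members, 5% were wider than 1279 bp in the chambers and 5% wider than 1342 bp in the AVC.

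The 5 widest members differed in how far the AVC peak filled them. The widest, chr11:3040456-3044190, covered 3735 bp with a signal of 935, and its stronger AVC partner covered 3034 bp with 1233. Next came chr1:24618378-24622067 with 3690 bp and 2350, over nearly the same span as an AVC peak of 3684 bp and 3059. For both, as stated above, the values cannot be taken as acetylation alone. The third, chr17:82134939-82137723, had 2785 bp and a signal of 507, and its stronger AVC partner had 2168 bp and 200. That partner covered 37.4% of it, and both kept AVC peaks together 60.2%. At chr18:55145021-55147475 a chambers peak of 2455 bp and 321 met a stronger partner of 758 bp and 108, which covered 25.6% of it, or 79.2% together with a weaker kept AVC peak. The fifth, chr17:26980379-26982718, had 2340 bp and 348 against 1329 bp and 89. The pair on chromosomes 11 and 1 had ratios above the reference and the remaining 3 had 0.394, 0.336 and 0.256.

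Among one-to-one members the lowest ratios belonged to wide chambers peaks. They were chr9:77194263-77195869 (204 in the chambers and 48 in the AVC), chr16:92398853-92400075 (272 and 68), chr2:17984802-17985824 (278 and 70), chr17:26980379-26982718 (348 and 89) and chr12:56402602-56404384 (227 and 60). Ratios ran from 0.235 to 0.264 and chambers widths from 1023 to 2340 bp, and the AVC peaks were narrower in each case. All 5 ranked between 25 and 75 among the kept chambers peaks by signal, while their AVC partners ranked between 515 and 5407.

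The highest one-to-one ratios lay mainly near the start of chromosome 11. There chr11:3098578-3099238 had 80 in the chambers and 399 in the AVC, chr11:3049962-3050461 had 67 and 265, and chr11:3089614-3090275 had 147 and 443. On chromosome 13, near its end, chr13:120281041-120281601 had 85 and 302, and chr13:120282840-120283709 had 78 and 259. Ratios were between 3.01 and 4.99. Away from these places the next were chr16:35485094-35485648 (48 and 136), chr10:57694443-57695220 (69 and 179) and chr3:151807137-151807764 (63 and 159), with ratios from 2.52 to 2.83. Their AVC peaks were 864 to 1358 bp wide and ranked between 115 and 153 among the kept AVC peaks.

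Members near chromosome starts came mainly from chromosome 11. Of the members 56 (3.62%) began in the first 4 Mb, against 0.975% of all autosomal chambers peaks and 0.734% of the kept non-members. Chromosome 11 supplied 47 of the 56. On the other chromosomes 9 of 1384 members (0.650%, 0.298 to 1.23) began there, against 0.817% of all chambers peaks and 0.652% of the kept non-members. The 56 had a median ratio of 2.02 (middle range 1.61 to 3.74), and 49 lay above the reference of 1.12. The 11 outside the chromosome 11 cluster had a median of 1.16, and 6 of them lay above it. In that cluster some AVC peaks were counted whole against several members, as described below. Past the first 4 Mb the median ratio was 0.828, 25 members reached a ratio of 2, and the same 146 as before lay at 0.5 or less.

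Neighbouring peaks were denser around members than around other kept peaks. The rule set no condition on neighbours, but those counted include other members and kept peaks, which it selected. A single AVC peak can also make adjacent chambers peaks members together, as 76 AVC peaks met 2 members and 4 met 3. The counts are therefore not independent of the selection. Another chambers peak lay within 5 kb of the edge for 1395 members (90.1%, interval 88.5 to 91.6), against 57.7% of all autosomal chambers peaks. The share was 83.2% (82.0 to 84.4) for the 3678 kept non-members, split into 85.5% of those that met unkept AVC peaks and 80.3% of those that met none. At least 3 further chambers peaks lay within 5 kb for 55.7% of members (53.2 to 58.2) and 40.05% of kept non-members (38.5 to 41.7). A chambers peak within 200 bp was found at 49.5% of members and 30.3% of kept non-members. Members past the first 4 Mb gave 90.1%, 54.7% and 48.2% for these 3 measures.

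Because members were stronger peaks, the same counts were taken within signal classes. With a chambers signal from 47 to under 60, at least 3 further peaks lay within 5 kb for 49.7% of members (43.9 to 55.4) and 36.5% of non-members (34.1 to 38.9). From 80 to under 100 the shares were 53.1% (47.3 to 58.7) and 42.1% (37.7 to 46.6). At 150 or more they were 75.9% (68.7 to 82.2) and 47.2% (30.4 to 64.5), the latter over 36 peaks. For a single further peak the gap was smaller, and the intervals overlapped in every class but the lowest, where the shares were 87.8% (83.6 to 91.3) and 80.2% (78.2 to 82.1). From 100 to under 150 they were 92.9% (89.5 to 95.4) and 91.2% (87.1 to 94.3). Width within a signal class was not held fixed.

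AVC peaks were also more frequent beside members. An AVC peak that did not touch the chambers peak itself lay within 5 kb of 1254 members (81.0%, 79.0 to 82.9), against 57% of all autosomal chambers peaks. The share was 74.1% for kept peaks that met unkept AVC peaks and 66.0% for those that met none. In the first kb from the edge there were 67.1 further chambers and 34.3 further AVC peaks per 100 sides of members. Members past the first 4 Mb had 64.9 and 32.9. Around kept peaks without any AVC peak the values were 36.7 and 18.5. Between 4 and 5 kb they had fallen to 23.1 and 19.3 around members and to 14.5 and 10.3 around the others. Between 19 and 20 kb members still had 14.4 and 13.3. Without the first 4 Mb they had 11.9 and 11.4, against 10.6 and 8.98 around kept peaks that met no AVC peak.

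**Figure D4:**
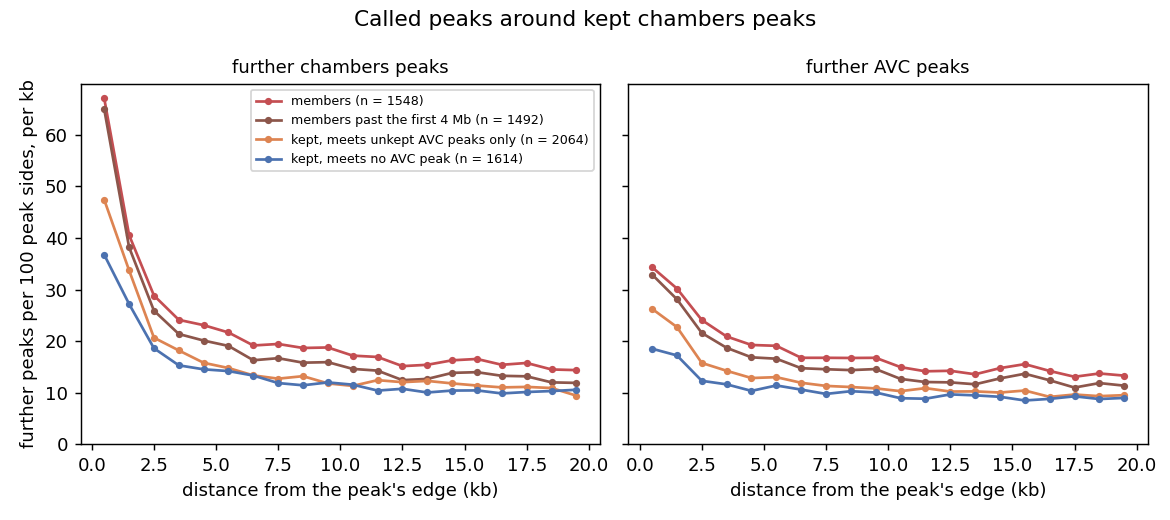
Further called peaks per 100 peak sides in each 1 kb step from the edge of a kept chambers peak, with chambers peaks on the left, AVC peaks on the right and peaks that overlap the kept peak left out. Lines stand for all members, members past the first 4 Mb, and the kept non-members in their 2 classes. The members' lines are highest in the first kb, at 67.1 and 34.3, against 36.7 and 18.5 for peaks that met no AVC peak.

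Weaker peaks beside members were counted in the same way. The 2728 unkept chambers peaks that lay within 5 kb of a member, with no kept peak nearer, had a median signal of 32. An AVC peak overlapped 1337 of them (49.0%, 47.1 to 50.9), against 36.2% of 5757 flanks of kept non-members and 28.4% of all unkept autosomal chambers peaks. Part of this was the AVC partner reaching past the member: counting AVC peaks that did not touch the member, the share was 36.0% (34.2 to 37.9), against 33.2% (32.0 to 34.4) beside non-members. For flanks with a signal from 30 to 46 these were 36.8% (34.2 to 39.5) and 35.3% (33.4 to 37.1), so the intervals overlap. Beyond 5 kb of any kept peak the share in this signal range was 30.6% (29.97 to 31.3). Leaving out the partners removes more AVC peaks beside members than beside non-members.

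Some members lay next to each other. Neighbours were joined into clusters at a fixed distance, which left gaps of 1 to 12479 bp inside clusters and of at least 12532 bp between them. This gave 1216 clusters: 1012 single members, 151 pairs, 35 of 3, 9 of 4 and 9 of 5 or more. A total of 536 members (34.6%) had company, 45 of them in the cluster of chromosome 11. No such share is given here for other kept peaks, so this one has no background. Gaps inside clusters had a median of 586.5 bp, and 107 of 332 were under 200 bp. Of the 204 clusters with 2 or more members, 128 spanned under 5 kb.

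The largest cluster is the locus on chromosome 11 for which collection of reads whatever the mark was not tested. There, 45 members lay within 72390 bp at chr11:3026849-3099238. Their chambers signals ran from 64 to 935 (median 181) and the AVC signals from 124 to 1233 (median 529). The median ratio was 2.68, with 43 of the 45 above the reference of 1.12, against 0.831 over the 1503 members outside it. Several wide AVC peaks here were counted whole against more than 1 member, which can raise these ratios. An AVC peak of 2500 bp and 1056 was the partner of both chr11:3060211-3060833 and chr11:3060841-3061890, with ratios of 9.03 and 3.87. The span held 92 chambers and 75 AVC peaks in all.

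Next came chr2:17969650-17985824, with 8 members in 16175 bp. Its weakest member, chr2:17969650-17970149, had 49 in the chambers and 84 in the AVC. At chr2:17976655-17978036 the values were 182 and 122. A run of 3 members with chambers signals of 98, 139 and 115, separated by gaps of a few bases, met the same AVC peak of 1231 bp and 135. The last member, chr2:17984802-17985824, had the highest chambers value, 278, and an AVC value of 70. Its AVC peak covered 43.3% of it. Within this one cluster the ratio ran from 0.252 to 1.71, against 0.439 to 1.79 from the 5% to the 95% point of all members.

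A pair of clusters had 7 members each. In chr17:12960814-12985066 the chambers signals ran from 54 to 167 and the AVC signals from 56 to 117. The first 2 members, with 134 and 79, met the same AVC peak of 117, and the last, chr17:12984251-12985066, had 167 against 108. The cluster chr14:120675397-120712370 was the longest of the 4 described outside chromosome 11, at 36974 bp. Its strongest chambers member, chr14:120676339-120677321, had 186 against 82 in the AVC, while its strongest AVC value, 110, belonged to chr14:120691351-120692412, with 89 in the chambers. The span held 32 chambers and 27 AVC peaks in all.

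The cluster chr14:63858050-63869859 packed 6 members into 11810 bp, of which they covered 6055 bp. Its peak chr14:63866024-63867824 was 1801 bp wide and had 355 in the chambers and 202 in the AVC. Its right neighbour, chr14:63868521-63869859, had 220 and 68. The 4 members to the left had chambers values of 61, 110, 65 and 138 and AVC values of 87, 87, 59 and 103. The first 2 members had the same AVC partner, a peak of 761 bp and 87, which was counted whole against each. It overlapped the first member by only 21 bp, and that member also met another kept AVC peak of no higher signal. Over the 6 members the ratio ran from 1.43 at the first to 0.309 at the last. The value of 1.43 thus rests on an AVC peak that lay mostly outside the first member.

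**Figure D5:**
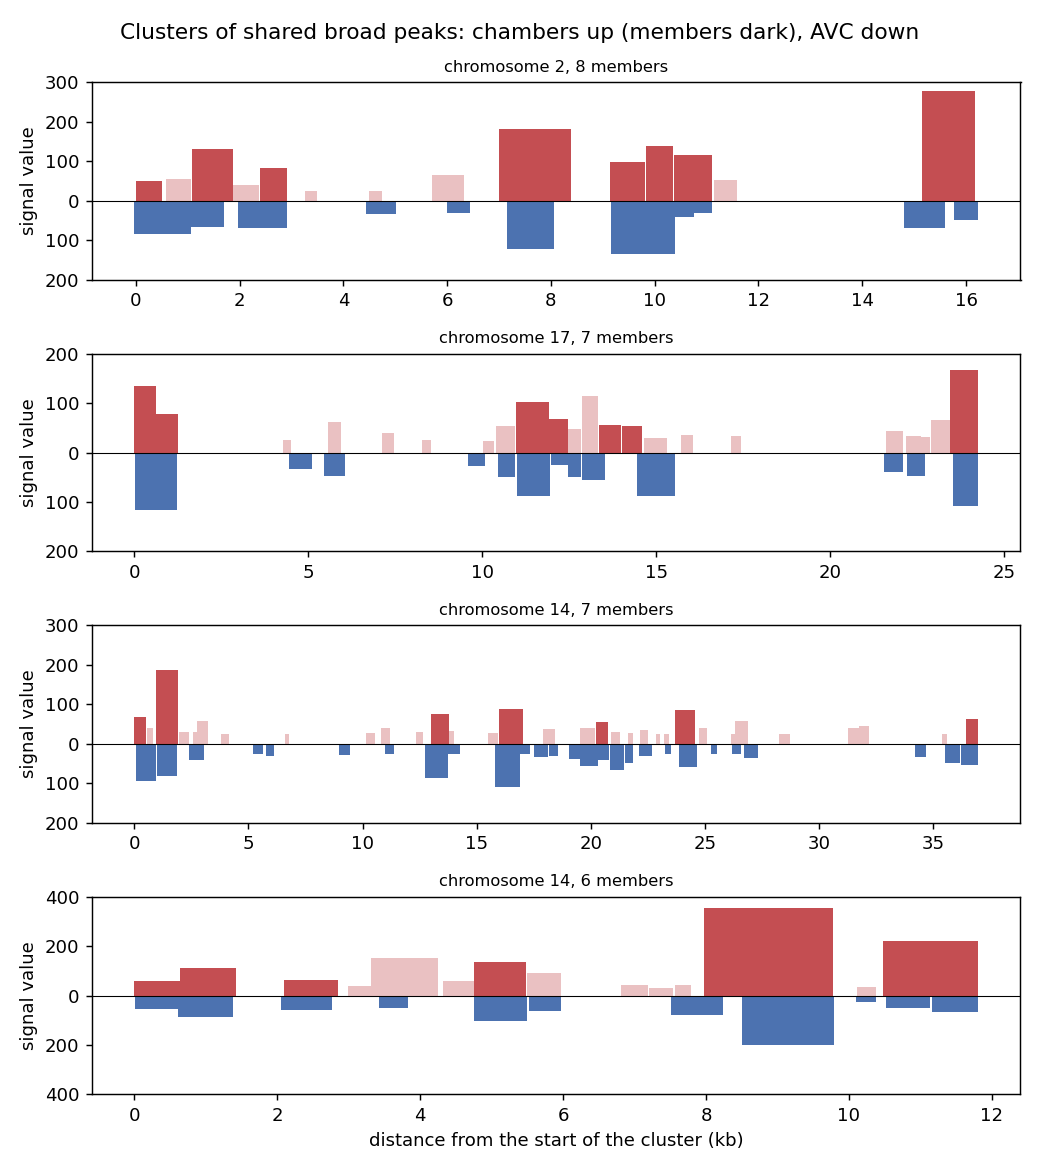
Called peaks in the 4 clusters with 6 to 8 members, by distance in kb from the start of the cluster. Chambers peaks point up (members dark, other peaks pale) and AVC peaks down, with height as the unscaled signal value. Each member stands over an AVC peak because the rule requires it. The relative heights change within a cluster, as at the right end of the chromosome 2 cluster with 278 against 70. There the AVC peak covered 43.3% of the chambers peak.

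Ratios of adjacent members differed by similar amounts within and between clusters. Past the first 4 Mb, 217 pairs of adjacent members in 1 cluster with different AVC partners had a median absolute difference of 0.50 in log2 ratio (middle range 0.23 to 0.93). Adjacent members on either side of a cluster border gave 0.51 (0.23 to 0.85) over 1186 pairs. No test was made, since members of a cluster share their surroundings.

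Members were spread over all autosomes. Counts ran from 42 on chromosome 12 to 164 on chromosome 11. As a share of kept chambers peaks they went from 23.9% (19.3 to 29.0) on chromosome 1 to 36.6% (31.7 to 41.7) on chromosome 7. Chromosome 11 had 35.1%, which became 28.2% without the first 4 Mb. Chromosomes 14, 9 and 19 had 33.7%, 33.6% and 33.5%. Among kept AVC peaks the share that met a member was lowest on chromosome 1 (16.7%) and highest on chromosome 11 (36.9%), followed by chromosome 19 (30.3%). Peaks were called chromosome by chromosome, so the list entries of different chromosomes need not stand for equal enrichment.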

How the data were processed

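H3K27ac ChIP-seq peak lists of 1 chambers and 1 AVC library were used. Per the file headers, OccuPeak 1.3 called the peaks of each library chromosome by chromosome at a Log(ER) of at least 2. Bowtie, SAMtools and the mm9 build are named in the submitters' processing notes, and no control library is named in the sources used here. The signal that the authors deposited is an unscaled whole number per peak, unnamed in the headers. Log(ER) itself, of unstated log base, is the second value per peak that the authors deposited and serves here as a score for ranking. Depth is unknown. Positions are mm9, 1-based.

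From these files, members, overlaps, neighbours and clusters were computed with pandas 2.3.3, numpy 2.4.6 and scipy 1.17.1 in Python 3.11.15, and drawn with matplotlib 3.10.9. Overlap counts equalled those of bedtools 2.31.1, and the functions were tested on shifted peaks of the chambers list and a small made-up example. Where a member met several AVC peaks, the one of highest signal was its partner. An AVC peak that was the partner of several members was counted whole against each. Medians carry exact binomial intervals at 95%. Regions were named by rule: the 5 highest by signal, by joint rank, by width and by either end of the ratio, and the 5 largest clusters. Members and rules were chosen with earlier results of these data known. Alternatives changed the signal cut, width, overlap, ranking, chromosome starts, cluster distance and neighbour distance. With 1 library per tissue no test was made.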

Additional observations from a re-analysis of the deposited data

Results flagged for a closer look

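Of the left-out chromosomes, X and the mitochondrial genome held peaks past both thresholds. On the X chromosome 38 chambers and 17 AVC peaks passed the signal and width thresholds, and 5 of the chambers peaks overlapped such an AVC peak. On the mitochondrial genome 4 chambers and 3 AVC peaks passed, and all 4 chambers peaks overlapped one of them. On the Y chromosome none of 11 chambers and 15 AVC peaks passed. No control library was used here, so these counts have no background and cannot be taken as acetylation.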

How the results depend on the processing

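Members numbered 1548 and their clusters 1216. With the signal cut at the 5000th peak there were 775 members in 622 clusters, and with a width of at least 1000 bp 82 in 64; all other settings on the rule kept both counts within 1.5 times. The shared part of the kept chambers peaks, 29.6%, became 26.2% when 50% of the peak had to be covered, 28.1% at the 5000th and 31.0% at the 20000th peak, and 22.2% at 1000 bp. The median width of 705 bp became 792 and 662.5 bp at these signal cuts, and 628 and 1276 bp at width limits of 300 and 1000 bp, as the limits themselves require. At 300 and 1000 bp the median width ratio was 1.07 and 0.999 and the median signal ratio 0.907 and 0.784. Per kb, added after seeing the data, the latter was 0.795. The share of members with a further chambers peak was 85.5% within 2 kb, 94.2% within 10 kb and, added later, 84.2% when peaks within 200 bp did not count; the kept non-members had 74.2%, 89.3% and 78.0%. Ranking by score or leaving out chromosome starts kept all 6 measures within their intervals or 1.5 times. No paired analysis was possible because each tissue has 1 sample. Unknown depth limits what a missing peak shows.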

Other observations

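The unnamed signal value rose with width in the peaks of the left-out mitochondrial genome. There the 4 chambers peaks of at least 1000 bp had between 1.17 and 1.33 units of signal per bp, over widths from 1037 to 8931 bp. The AVC peaks of at least 1000 bp had 1.82, 1.60 and 1.41 over 4856, 1532 and 8929 bp. The other 2 chambers peaks, of 146 and 171 bp, had 0.363 and 0.532.

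Past the first 4 Mb, 14 members had a chambers signal of at least 250 per kb. Of these, 10 had a ratio above the median of 1.12 over all overlapping peaks, among them chr1:26743721-26744797 (291 in the chambers and 552 in the AVC), chr15:74916653-74917511 (2028 and 2653), chr2:22444694-22445284 (294 and 349) and chr9:119719572-119720206 (447 and 604). On chromosome 17, chr17:39979930-39980941 (534 and 753) adjoined the pair of very strong members. The other 4 lay below it, including chr19:5800049-5802024 (556 and 368) and chr2:17984802-17985824 (278 and 70).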
